A study of Mus musculus with 12 samples.

Results

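The 30 genes described here carry out cell division: 11 copy DNA, 16 act in mitosis, and 3 mark or serve both phases. They were taken by symbol from a list of cell cycle and DNA replication genes, by a rule that uses no measured value. All 30 were found among the 34348 genes of an RNA sequencing table of mouse small intestine and liver. The mice were of the C57BL/6 strain and had received either PBS (phosphate-buffered saline), the control, or LCWE. The labels do not expand LCWE, a name commonly given to Lactobacillus casei cell wall extract, with which mice are made to develop a Kawasaki-like vasculitis. In the authors' table of differences the treated columns are headed LCWECFA, and no source used here explains the added letters, so an "LCWE effect" is the contrast of the labelled groups. The 4 groups, small intestine with PBS, small intestine with LCWE, liver with PBS and liver with LCWE, hold 3 libraries each. PBS libraries carry the replicate numbers 2, 3 and 4 and LCWE libraries 1, 2 and 4, and values are listed in that order throughout. The labels give no age, sex, dose or time, and are silent on whether each library is a separate mouse, so the p-values reflect library-to-library spread, which may be technical.

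Cells copy their DNA in S phase and part the copies in M phase. Before S phase the Mcm2 to Mcm7 proteins are loaded on DNA as a ring-shaped helicase, which Cdc45 helps to activate. Pcna is the sliding clamp of the DNA polymerases, and Tyms, Rrm2 and Tk1 supply nucleotides. Cdk1 with cyclins B1 and B2 (Ccnb1, Ccnb2) drives entry into mitosis, the kinases Plk1, Aurka and Aurkb build and correct the spindle, and the checkpoint proteins Bub1 and Bub1b hold back Cdc20 until chromosomes are attached. Dividing cells of the small intestine lie in the crypts, which renew the epithelium throughout life. Hepatocytes of a healthy adult liver rarely divide, and many of those in mice are polyploid. E2F factors act at the promoters of many replication genes, while many mitotic genes are regulated through an element called CHR, often with nearby CCAAT boxes that bind NF-Y.

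Promoter sequence was compared between the classes first, since the same 2 classes are followed through the expression data. RefSeq entries of 300 bases (250 before and 50 after a transcript start, GRCm38.p6) matched 25 of the 30 genes by symbol, with 26 entries because Mcm7 has 2. The genes with no entry were Mcm4, Ccna2, Foxm1, Aurkb and Tpx2. An E2F match, searched on both strands as TTTCCCGC or TTTCGCGC or TTTGCCGC or TTTGGCGC, was found in 4 of 10 replication genes (Mcm3, Mcm5, Mcm6 and Mcm7) and in 1 of 14 mitosis genes (Cdk1). It was found in 2.26% of all 32851 entries. A CHR match, TTTGAA or TTCGAA, the latter reading the same on both strands, was found in 3 of 10 replication genes and 11 of 14 mitosis genes, against 19.2% of all entries. A CCAAT match was found in 8 of 10 and 12 of 14, against 37.4%. Counted per gene, as the members are, the shares over all 27025 genes with entries were 2.60% for E2F, 21.7% for CHR and 41.1% for CCAAT. In the 250 bases before the start alone, E2F was held by 3 of 10 and 1 of 14 against 1.86% of entries, and CHR by 3 of 10 and 7 of 14 against 17.1%. Per gene these 2 shares were 2.16% and 19.6%. A match is a description of letters and not a bound site. Tyms, Tk1, Birc5 and Nusap1 held none of the 3 motifs in this window.

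Windows of 150 bases are printed for 6 genes, 2 replication genes with E2F matches, 3 mitosis genes with CHR matches, and Mki67, the gene that passed the test in liver. Capitals mark E2F, CHR and CCAAT matches on either strand. The windows run from -150 to -1 relative to the start for Mcm5 (chr8:75109359-75109508, plus strand), Mcm6 (chr1:128359706-128359855, minus strand), Top2a (chr11:99024190-99024339, minus strand) and Mki67 (chr7:135716380-135716529, minus strand). They run from -176 to -27 for Cdk1 (chr10:69352939-69353088, minus strand) and from -159 to -10 for Cdc20 (chr4:118437353-118437502, minus strand), which keeps each clear of annotated exons. Each is written 5′ to 3′ on the gene's own strand.
Mcm5: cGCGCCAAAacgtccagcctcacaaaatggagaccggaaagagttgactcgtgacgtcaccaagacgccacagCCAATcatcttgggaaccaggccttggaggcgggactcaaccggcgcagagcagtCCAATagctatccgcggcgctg
Mcm6: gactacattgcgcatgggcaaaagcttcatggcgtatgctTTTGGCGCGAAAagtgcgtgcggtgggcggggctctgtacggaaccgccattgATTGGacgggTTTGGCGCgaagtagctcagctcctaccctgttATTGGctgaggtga
Cdk1: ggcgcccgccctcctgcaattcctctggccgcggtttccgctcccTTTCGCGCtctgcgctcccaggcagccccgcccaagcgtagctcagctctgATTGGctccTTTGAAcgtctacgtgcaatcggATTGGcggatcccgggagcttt
Top2a: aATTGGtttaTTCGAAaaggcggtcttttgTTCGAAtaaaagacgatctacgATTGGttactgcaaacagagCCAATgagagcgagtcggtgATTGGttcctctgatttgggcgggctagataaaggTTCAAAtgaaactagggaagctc
Cdc20: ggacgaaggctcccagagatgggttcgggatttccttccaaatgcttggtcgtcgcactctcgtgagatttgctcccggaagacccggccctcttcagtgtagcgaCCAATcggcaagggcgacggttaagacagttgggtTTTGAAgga
Mki67: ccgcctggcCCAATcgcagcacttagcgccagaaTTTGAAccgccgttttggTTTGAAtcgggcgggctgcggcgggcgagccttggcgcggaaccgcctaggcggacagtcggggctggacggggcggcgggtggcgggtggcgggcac

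The Mcm6 window holds a pair of overlapping E2F matches on opposite strands and a further one nearer the start. Mcm5 has the same overlapping arrangement, of which the printed window shows the second match. Top2a holds 3 CHR matches here, and Mki67 holds 2 with 1 CCAAT box upstream of them. Cdk1 was the only gene of the 25 to hold E2F and CHR matches together besides Mcm7.

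**Figure D1:**
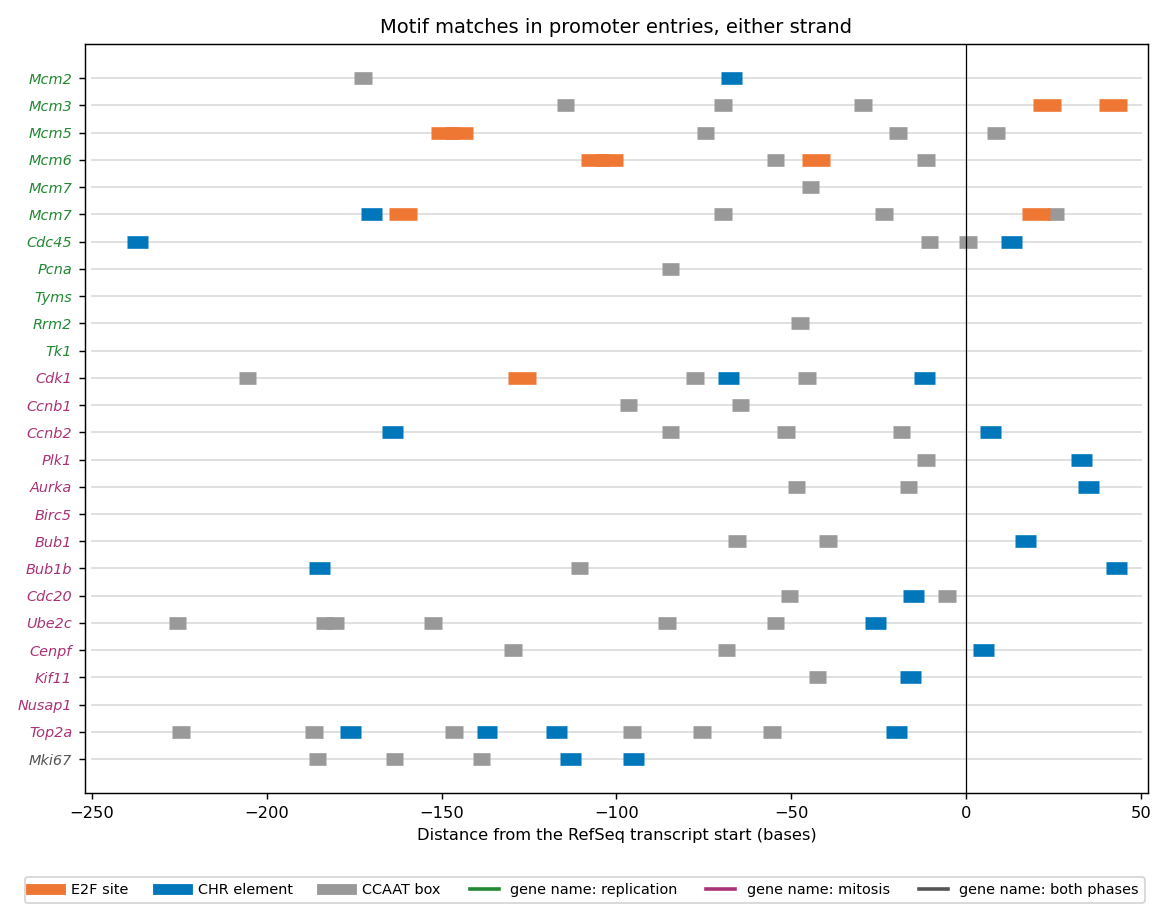
Position of each motif match in the RefSeq promoter entries of the genes that have one, as the distance in bases from the transcript start (vertical line). Orange bars are E2F matches, blue bars CHR matches and grey bars CCAAT matches on either strand. Orange is seen in 4 of 10 replication genes and 1 of 14 mitosis genes, blue in 3 of 10 and 11 of 14.

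Reads assigned to genes ranged from 30294594 to 40253006 per intestinal library and from 34741958 to 44921885 per liver library. Levels are RPKM, which divides reads by gene length and by the reads of the library, so that levels of different genes can be set side by side. As a check of the tissue labels, Alb, the serum albumin of hepatocytes, was at 10519 to 23555 RPKM in liver against 51.6 to 145 in intestine. Fabp2, the fatty acid binding protein of enterocytes, was at 676 to 9408 RPKM in intestine against 38.6 to 113 in liver. Gene models of some of the 30 share exonic bases with neighbours on the opposite strand. The shared part is 592 bases (22.8%) of Ube2c with Tnnc2, 510 bases (12.5%) of Ccna2 with Exosc9 and 209 bases (9.28%) of Cdc45 with Ufd1l. Mcm7 shares 321 bases (7.25%) with Ap4m1, Plk1 156 bases (7.09%) with Gm44985, and Tk1 83 bases (1.60%) with Afmid. Nusap1 shares 172 bases (4.24%) with Oip5 and Cdc20 53 bases (2.84%) with Elovl1. Tnnc2 had at most 0.369 RPKM in any library, while Elovl1 had 4.43, 5.14 and 4.30 in the liver of PBS mice. The part of Elovl1 reads in the Cdc20 value was not tested. Whether counting used strand is not stated in what was used here, so reads from those bases cannot be told apart from their partners'. Pcna and Ccnb2 also have pseudogene copies in the table, between which reads may have been split.

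Between the control tissues, 29 of the 30 genes were lower in liver, by adjusted p from 1.36e-10 to 2.24e-05 (limma on log2(RPKM + 0.5), Benjamini-Hochberg over 18619 genes). The exception was Tk1. The drop was larger for mitosis genes, whose median intestine-to-liver ratio of means was 33.8 in PBS mice, than for replication genes, whose median ratio was 5.38. Of all genes tested, 60.5% were called lower in liver, so the count of 29 is read against a high background. That share was 33.9% under quantile scaling and 37.4% under median-ratio scaling, and 29 genes were called lower under both. The median log2 fold change, liver over intestine, was -1.97 for replication genes, -3.82 for mitosis genes and -0.69 for all genes tested. Quantile scaling shifted the median of all genes by 0.70 and median-ratio scaling by 0.61, after which the class medians were -1.18 and -3.07, and -1.32 and -3.27. In whole tissue, fewer cells of a dividing type and less RNA per cell cannot be told apart.

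Among helicase subunits, Mcm3 had 19.4, 17.2 and 17.8 RPKM in the intestine of PBS mice and 3.35, 3.72 and 3.04 in their liver. Mcm7 had 14.1, 14.0 and 12.9 in intestine and 4.10, 4.52 and 4.09 in liver. Mcm5 had 13.1, 11.3 and 11.1 against 0.825, 0.978 and 1.02. The ratio of means was 5.38 for Mcm3, 3.22 for Mcm7 and 12.6 for Mcm5, the highest of the 11 replication genes. For Mcm6 the intestinal values were 12.1, 11.6 and 10.3 RPKM and the liver values 0.955, 1.14 and 1.07. Mcm2 was at 5.90, 5.47 and 5.66 in intestine and 0.718, 1.07 and 0.848 in liver. Mcm4 was at 6.15, 5.92 and 6.20 and 1.35, 1.19 and 1.01. The 6 subunits form 1 ring, yet in liver Mcm3 and Mcm7 stood between 3.04 and 4.52 RPKM in each PBS library while the other 4 reached at most 1.35. Cdc45, which joins that helicase when it fires, had 9.24, 7.29 and 7.34 RPKM in intestine and 1.28, 1.21 and 1.55 in liver, a ratio of 5.90. Ufd1l, which shares 9.28% of the Cdc45 bases on the opposite strand, had 9.71, 10.1 and 10.5 RPKM in intestine of PBS mice. In their liver Ufd1l had 8.97, 9.74 and 9.94, well above Cdc45. The part of Ufd1l reads in the Cdc45 value was not tested.

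Pcna had the highest level of the 11 in both tissues, 25.7, 23.3 and 21.1 RPKM in intestine and 8.71, 6.84 and 6.37 in liver, with a ratio of only 3.19. Tyms, which makes thymidylate, had 3.18, 3.23 and 2.58 in intestine and 1.16, 0.885 and 0.873 in liver. Rrm2, the small subunit of ribonucleotide reductase, had 4.47, 3.72 and 3.63 and 0.728, 0.725 and 0.697. Both enzymes were lower in every liver library than in any intestinal one. Tk1, which salvages thymidine, had 4.78, 4.30 and 3.72 RPKM in intestine and 4.59, 5.15 and 5.13 in liver. These ranges overlap, and its log2 fold change of 0.20 (SE 0.188, adjusted p = 0.346) did not pass. Under quantile scaling Tk1 was called higher in liver (0.91, adjusted p = 0.000615) and likewise under median-ratio scaling (0.92, adjusted p = 0.000626). Its partner Afmid, on the opposite strand, had 2.27, 1.91 and 1.74 RPKM in the intestine and 33.4, 25.9 and 26.3 in the liver of PBS mice. The part of Afmid reads in the Tk1 value was not tested.

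The mitotic kinases were separated further. Plk1 had 28.6, 29.2 and 27.7 RPKM in intestine and 0.316, 0.228 and 0.104 in liver, a ratio of means of 132, the highest of all 30 (log2 fold change -5.35, SE 0.175, adjusted p = 2.02e-10). On the log2 fold change, which adds 0.5 RPKM to each value, Mki67 lay further from 0, at -5.58. Cdk1 had 10.6, 10.8 and 8.27 against 0.572, 0.689 and 0.428, a ratio of 17.6. Aurkb had 4.80, 4.37 and 3.91 against 0.0760, 0.0947 and 0.0173, a ratio of 69.6 that rests on only 10, 10 and 2 liver reads. Aurka, in contrast, had the smallest ratio of the 16, at 10.8, with 13.5, 12.7 and 10.1 RPKM in intestine and 0.779, 1.38 and 1.20 in liver. The B cyclins that partner Cdk1 were at 4.90, 4.16 and 3.41 (Ccnb1) in intestine. In liver Ccnb1 was at 0.106, 0.0794 and 0.181. Ccnb2 was at 13.1, 11.5 and 10.5 in intestine and 0.205, 0.164 and 0.432 in liver. Aurka thus kept more of its intestinal level in liver than Plk1, Aurkb or the cyclins, on the RPKM scale.

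The checkpoint kinase Bub1 had 2.19, 2.27 and 1.94 RPKM in intestine and 0.0669, 0.0513 and 0.0818 in liver. Its relative Bub1b had 20.4, 17.1 and 16.6 and 0.398, 0.614 and 0.601. Cdc20, which activates the anaphase-promoting complex, had 9.86, 9.83 and 7.44 and 0.228, 0.299 and 0.381. All 3 had close ratios of means, from 29.9 for Cdc20 to 33.6 for Bub1b. Ube2c, the ubiquitin-conjugating enzyme of that complex, had 12.5, 10.9 and 8.18 in intestine and 0.276, 0.182 and 0.0587 in liver. Birc5 (survivin), a partner of Aurkb at the centromere, had 13.4, 13.1 and 10.8 and 0.441, 0.279 and 0.269. Cenpf, a kinetochore protein, had 9.63, 8.02 and 7.68 and 0.122, 0.166 and 0.125. Ratios for these were 61.0, 37.7 and 61.3.

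For the spindle motor Kif11 the intestinal values were 16.2, 14.0 and 11.8 RPKM and the liver values 0.232, 0.718 and 0.591. Tpx2, which activates Aurka on the spindle, had 17.3, 15.5 and 13.1 and 0.565, 0.692 and 0.555. Nusap1, a microtubule binder, had 13.3, 11.4 and 10.1 and 0.370, 0.564 and 0.401. The 3 spindle genes had similar ratios, 27.2, 25.4 and 26.0. Top2a, the topoisomerase that untangles sister chromatids, had 50.5, 41.4 and 38.0 in intestine and 0.870, 1.12 and 1.02 in liver, a ratio of 43.1. It was the highest mitosis gene in each intestinal library, ahead of Plk1.

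Among the genes of both phases, Mki67 (Ki-67), the usual histological mark of cycling cells, had the highest intestinal level of all 30 at 93.4, 74.9 and 74.3 RPKM, against 0.917, 1.52 and 1.21 in liver. Foxm1, a transcription factor of late cell cycle genes, had 2.13, 2.13 and 1.93 against 0.0389, 0.0873 and 0.110. Ccna2 (cyclin A2) had 13.9, 14.0 and 11.2 against 3.11, 2.80 and 2.35. Mki67 and Foxm1 lay with the mitosis genes at ratios of 66.6 and 26.2, and Ccna2 with the replication genes at 4.74. Exosc9, which shares 12.5% of the Ccna2 bases on the opposite strand, had 12.7, 13.1 and 11.9 RPKM in intestine of PBS mice. In their liver Exosc9 had 6.67, 6.32 and 5.28. The part of Exosc9 reads in the Ccna2 value was not tested. Over all 30 genes the liver libraries lay wholly below the intestinal ones for 29, against 62.4% of genes tested.

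**Figure D2:**
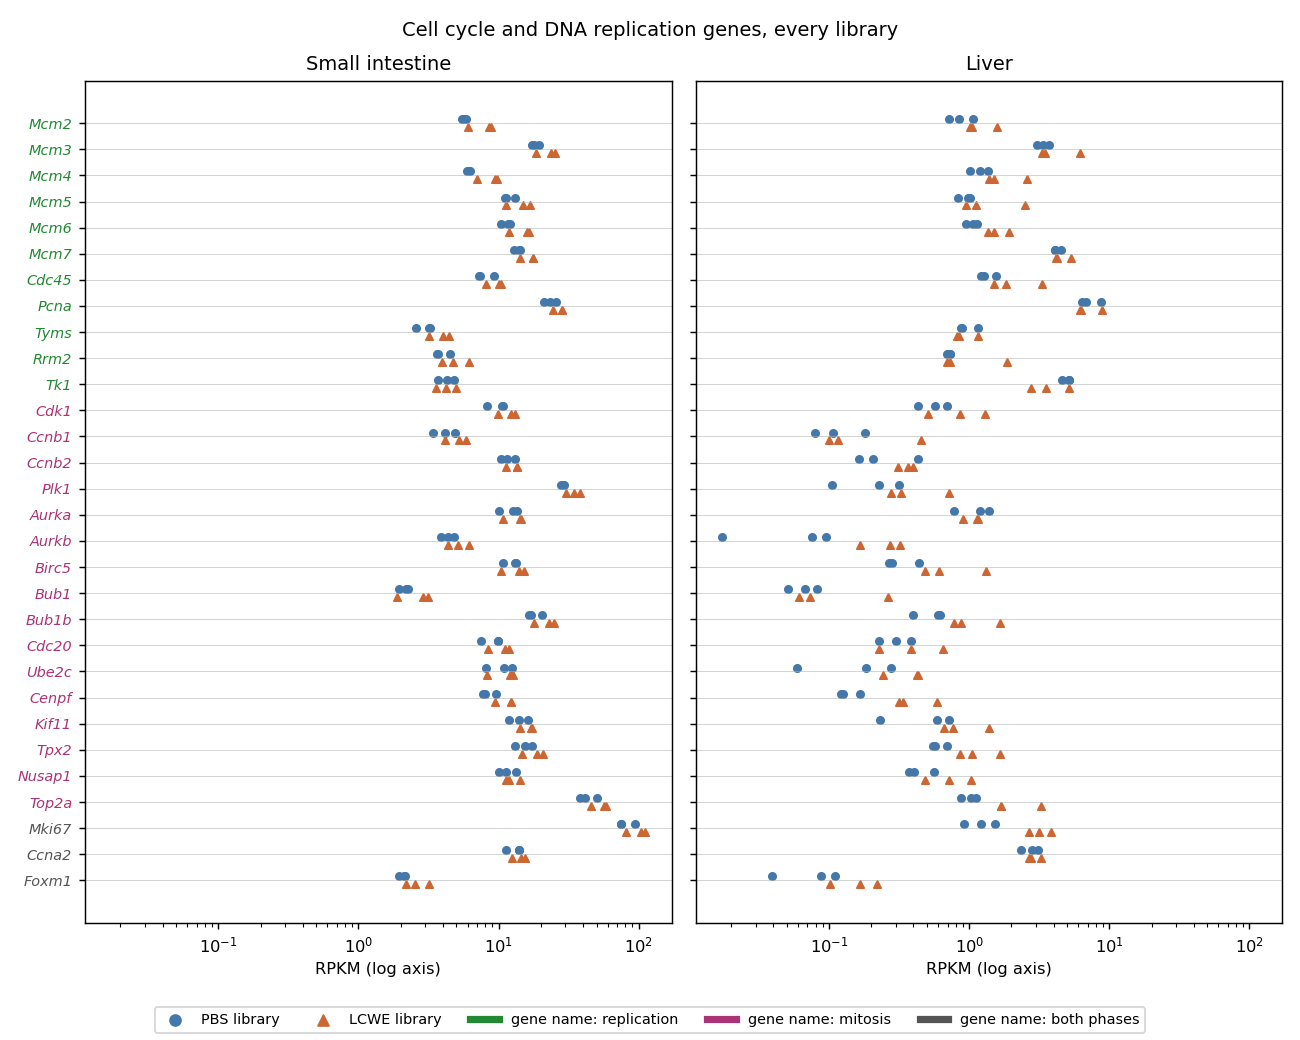
RPKM of each of the 30 genes in each library on a log axis, small intestine on the left and liver on the right; circles are PBS libraries and triangles LCWE libraries, and gene names are coloured by class. In intestine all genes lie between 1.87 and 111 RPKM, while in liver several mitosis genes lie below 0.1.

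**Figure D3:**
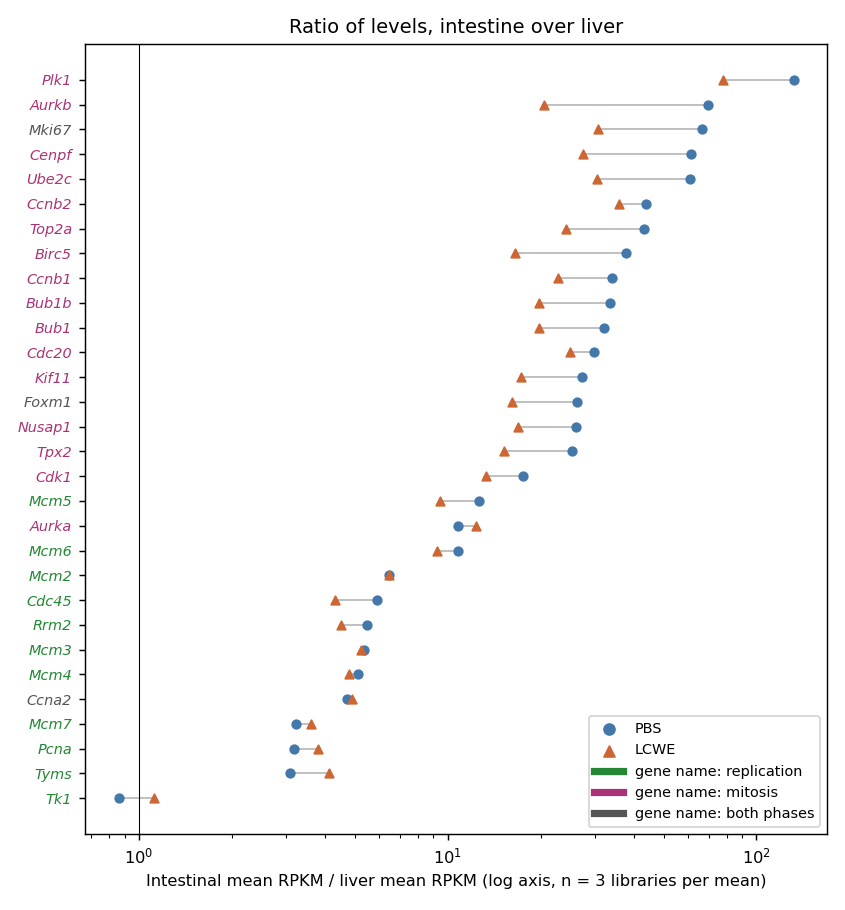
Ratio of mean RPKM in intestine to mean RPKM in liver for each gene, on a log axis, with 3 libraries per mean; circles are PBS and triangles LCWE. Genes are sorted by the PBS ratio, from Tk1 at 0.861 to Plk1 at 132, and 15 of the 16 mitosis genes stand above every replication gene.

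In the small intestine no member passed the test between LCWE and PBS (0 of 30, against 0% of 17510 genes). At an unadjusted p below 0.05, 4 of the 30 were higher (Mcm2, Mcm4, Mcm6 and Cenpf) against 7.69% of genes, and voom on recovered reads called 0 genes as well. The LCWE mean was above the PBS mean for 29 of 30 genes, all but Tk1, where 69% of genes tested had a fold change above 0. Differences were small, with a median log2 fold change of 0.28 for replication genes and 0.22 for mitosis genes against 0.11 for all genes. LCWE replicates 2 and 4 carried the higher values: 26 genes were highest in replicate 2, against 23.8% of genes, and for 25 genes replicate 1 lay within or below the PBS range, against 74.2%. All 3 LCWE libraries lay above all PBS libraries for 5 of the 30, against 13.2% of genes. Without LCWE replicate 1, both remaining LCWE libraries did so for 27, against 42.2% of genes, and 30 of 30 means were higher, against 70.8%. The median log2 fold change of all genes then was 0.17. Leaving out this replicate was a choice made after seeing the data. The count of genes with LCWE wholly above PBS was 5 without LCWE replicate 2 and 5 without LCWE replicate 4. It was 16, 6 and 5 without PBS replicates 2, 3 and 4.

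Mcm4 had the smallest p of the 30. Its PBS values were 6.15, 5.92 and 6.20 RPKM and its LCWE values 6.99, 9.37 and 9.76, which do not overlap, and the log2 fold change was 0.47 (SE 0.137, adjusted p = 0.291). Mcm2 went from 5.90, 5.47 and 5.66 to 6.01, 8.81 and 8.58, also with no overlap (0.41, SE 0.154, adjusted p = 0.36). Mcm7 did not overlap either, with LCWE values of 14.3, 17.6 and 17.5 against a PBS maximum of 14.1. For the other helicase genes replicate 1 fell inside the PBS range. LCWE values were 11.9, 16.5 and 16 for Mcm6. They were 18.6, 25.3 and 23.8 for Mcm3 and 11.4, 16.8 and 14.9 for Mcm5. Cdc45 had LCWE values of 8.16, 10.3 and 10.1. Each of these 4 was lowest among LCWE libraries in replicate 1.

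LCWE values of Pcna were 24.4, 28.1 and 28.4 RPKM. Tyms had 3.19, 4.45 and 4.03 and Rrm2 3.95, 6.11 and 4.74. Tk1 had 3.56, 4.96 and 4.23, a ratio of means of 0.996. The nucleotide enzymes thus ranged from a ratio of 0.996 in Tk1 to 1.30 in Tyms, and none passed.

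Of the mitosis genes, Cenpf had the smallest p, with PBS values of 9.63, 8.02 and 7.68 RPKM and LCWE values of 9.47, 12.3 and 12.3 (log2 fold change 0.40, SE 0.141, adjusted p = 0.343). Plk1 had the next, with LCWE values of 30.02, 38.4 and 34.5 above all PBS values (0.25, SE 0.109, adjusted p = 0.403). Among the other kinases and cyclins, Cdk1 had LCWE values of 9.88, 13.2 and 12.3. In these 3 genes the 2 highest libraries were LCWE ones and the lowest was a PBS one. Ccnb1 had 4.14, 5.85 and 5.23 and Ccnb2 11.3, 13.5 and 13.4. Aurka had 10.8, 14.3 and 14.4 and Aurkb 4.33, 6.14 and 5.13. Ratios of means for these 5 lay between 1.09 and 1.22.

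Bub1 had LCWE values of 1.87, 2.90 and 3.11 RPKM and Bub1b of 17.8, 24.8 and 22.9. Cdc20 had 8.37, 11.8 and 11.1 and Ube2c 8.31, 12.7 and 12.1. Birc5 had 10.5, 15.2 and 14.0, a ratio of 1.06. Birc5 and Ube2c were the mitosis genes nearest to no difference, and their direction flipped under median-ratio scaling (-0.03 and -0.04 on the log2 scale). Kif11 had 14.1, 17.3 and 17.1 and Tpx2 14.6, 20.6 and 18.9. Nusap1 had 11.3, 14.2 and 11.9 and Top2a 45.7, 58.4 and 56.4. The largest ratio of means in the class was 1.34, that of Cenpf.

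Mki67 had LCWE values of 81.8, 111 and 104 RPKM against 93.4, 74.9 and 74.3 with PBS (log2 fold change 0.28, SE 0.153, adjusted p = 0.463). Its replicate 1 lay between PBS libraries. Foxm1 had 2.18, 3.16 and 2.53, with no overlap (0.27, SE 0.142, adjusted p = 0.455), and Ccna2 had 12.5, 15.4 and 14.5. Over the same libraries the summed RPKM of 11 enterocyte markers was 11485 to 21166 with PBS and 2886 to 8794 with LCWE. The sum of 13 crypt stem and transit cell markers was 318 to 321 with PBS, 254 in LCWE replicate 1, and 405 and 383 in replicates 2 and 4. No marker of either list was at 0. Of the other 7 marker lists, 6 overlapped between the intestinal groups, and the hepatocyte list, which holds genes such as Apoa1 that intestine also makes, summed to 6911 to 9039 with PBS and 2409 to 5207 with LCWE. Most of that list did not share the fall of its sum. Of its 10 genes, 6 had a log2 fold change above 0 and 4 below, with a median of 0.38. The part of these cell types in the values of the 30 genes was not tested.

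In the liver, 1 of the 20 genes tested passed, Mki67, which rose with LCWE, where 3.39% of 14404 genes were called higher. A count of 1 in 20 is near that background. Its PBS values were 0.917, 1.52 and 1.21 RPKM and its LCWE values 2.67, 3.15 and 3.85, so the groups do not overlap and means went from 1.21 ± 0.300 to 3.23 ± 0.595 (SD, n = 3). The log2 fold change was 1.12 (SE 0.182), a 2.18-fold rise, with an adjusted p of 0.0260. The remaining 10 genes, 9 of mitosis and Foxm1, were below 0.5 RPKM in too many libraries to be tested. On PBS libraries alone 16 genes would have passed the filter, so 4 needed LCWE libraries to pass it. Over all 30, tested or not, the LCWE mean was above the PBS mean for 26, against 59.7% of genes above 0. LCWE replicate 4 was the highest library for 25, against 21.9%, and without it 22 means were higher, against 56.9% of genes.

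The Mki67 call was lost with any 1 of 5 libraries left out: LCWE replicate 1 (adjusted p = 0.0790), 2 (0.123) or 4 (0.0792), or PBS replicate 3 (0.0614) or 4 (0.0802), and with no filter (0.0621). It held without PBS replicate 2 (0.0303), and over all alternatives the adjusted p ranged from 0.00435 to 0.184, with log2 fold changes from 0.93 to 1.43.

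Top2a came next among the 30. It had 0.870, 1.12 and 1.02 RPKM with PBS and 1.68, 1.68 and 3.25 with LCWE, with no overlap (log2 fold change 0.80, SE 0.231, adjusted p = 0.118). It passed only in 1 fit over the 4 groups (adjusted p = 0.0478, range over alternatives 0.0478 to 0.331). In the authors' deposited table, which lists 797 genes for liver where RPKM values cover 34348, 4 of the 30 are present. Being listed there is not a call below 0.05, as Birc5 has a false discovery rate of 0.132. The log2 fold change in the authors' deposited table is 1.24 for Mki67 (false discovery rate 0.00486), 1.06 for Top2a (0.0205), 1.28 for Cenpf (0.0285) and 1.05 for Birc5 (0.132). The same authors' deposited table lists 220 genes for intestine, and none of the 30 is among them.

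LCWE libraries lay wholly above PBS libraries for 9 of the 30, against 14.4% of genes above 0 and 18.7% of genes tested. The 9 were Mki67, Mcm4, Mcm6, and the mitosis genes Aurkb, Birc5, Bub1b, Cenpf, Tpx2 and Top2a. Cenpf had 0.122, 0.166 and 0.125 RPKM with PBS and 0.314, 0.335 and 0.591 with LCWE, a ratio of means of 3.0 on 76 to 92 and 184 to 317 reads. Birc5 went from 0.441, 0.279 and 0.269 to 0.612, 0.484 and 1.31, a ratio of 2.43. Aurkb went from 0.0760, 0.0947 and 0.0173 to 0.322, 0.272 and 0.166, a ratio of 4.04 on 2 to 10 and 17 to 36 reads. With no filter these 3 did not pass (adjusted p = 0.157 for Cenpf, 0.364 for Birc5 and 0.132 for Aurkb). Tpx2 had LCWE values of 0.856, 1.05 and 1.66 against 0.565, 0.692 and 0.555 (log2 fold change 0.59, SE 0.192, adjusted p = 0.163). Bub1b had 0.783, 0.875 and 1.66 against 0.398, 0.614 and 0.601 (0.60, SE 0.225, adjusted p = 0.218). In all of these but Aurkb, replicate 4 was the highest.

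Other mitosis genes overlapped between groups. Cdk1 had LCWE values of 0.505, 0.859 and 1.30 RPKM, and Plk1 0.276, 0.324 and 0.720. Ccnb1 had 0.10, 0.116 and 0.450 and Ccnb2 0.310, 0.364 and 0.395. Bub1 had 0.0726, 0.0614 and 0.264 and Cdc20 0.226, 0.381 and 0.647. In Ccnb1 and Bub1 only replicate 4 stood above the PBS range, and for Cdc20 replicate 2 was level with the highest PBS library. Ube2c had 0.243, 0.428 and 0.421 and Nusap1 0.480, 0.713 and 1.02. Kif11 had 0.760, 0.661 and 1.38 and Aurka 0.895, 1.14 and 1.16. Aurka was the only mitosis gene with a lower LCWE mean, at a ratio of 0.954.

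Among replication genes, Mcm6 had the smallest p, with LCWE values of 1.5, 1.37 and 1.93 RPKM against 0.955, 1.14 and 1.07 (log2 fold change 0.43, SE 0.141, adjusted p = 0.163). Mcm4 had 1.51, 1.39 and 2.57 against 1.35, 1.19 and 1.01 (0.43, SE 0.209, adjusted p = 0.332). In both, the groups do not overlap, although the lowest LCWE value of Mcm4 exceeds the highest PBS value by little. Mcm2 had LCWE values of 1.01, 1.04 and 1.58 and Mcm3 3.33, 3.47 and 6.14. Mcm5 had 0.944, 1.11 and 2.50 and Mcm7 4.13, 4.19 and 5.28. Cdc45 had 1.83, 1.49 and 3.31. Ufd1l, which shares bases with Cdc45, had 9.39, 9.42 and 8.37 in the same libraries. In Mcm3, Mcm5 and Mcm7 replicates 1 and 2 lay near the PBS values and replicate 4 above them.

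Rrm2 showed that pattern most clearly, with PBS values of 0.728, 0.725 and 0.697 RPKM and LCWE values of 0.694, 0.723 and 1.86. Pcna had LCWE values of 6.28, 6.12 and 8.89 and Tyms 0.818, 0.848 and 1.16, with ratios of means of 0.972 and 0.969. Tk1 had 2.74, 3.52 and 5.14, a ratio of 0.767, the lowest of the 30. Afmid, which shares bases with it, had 19.6, 19.96 and 33.3 in the same libraries against 33.4, 25.9 and 26.3 with PBS. Foxm1 had 0.101, 0.166 and 0.220 and Ccna2 2.65, 2.74 and 3.23. The direction of Ccna2 flipped under quantile (-0.06) and median-ratio (-0.01) scaling, and that of Mcm7 under quantile scaling (-0.02).

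Several marker lists moved with the groups in liver. The sum of 13 macrophage and monocyte markers was 185 to 239 RPKM with PBS and 429 to 730 with LCWE, highest in replicate 4. For 12 neutrophil markers the sums were 1.73 to 4.69 and 18.1 to 41.6, highest in replicate 2, and 8 of the 12 were at 0 in at least 1 library. For 16 T and NK cell markers they were 4.84 to 5.09 and 10.2 to 13.1, highest in replicate 1. Smooth muscle and fibroblast markers (12 genes) were at 35.8 to 39.3 and 41.1 to 49.8. Hepatocyte markers (10 genes) were at 35088 to 53821 with PBS and 31386 to 34511 with LCWE. Of these 10 genes, 4 had a log2 fold change above 0 and 6 below, with a median of -0.04. Erythroid markers (12 genes) overlapped, at 76.1 to 187 and 62.6 to 82.9. B cell and germinal centre markers (13 genes) overlapped too, at 2.52 to 7.01 and 4.0 to 6.42. The part of these cells in the Mki67 difference was not tested.

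**Figure D4:**
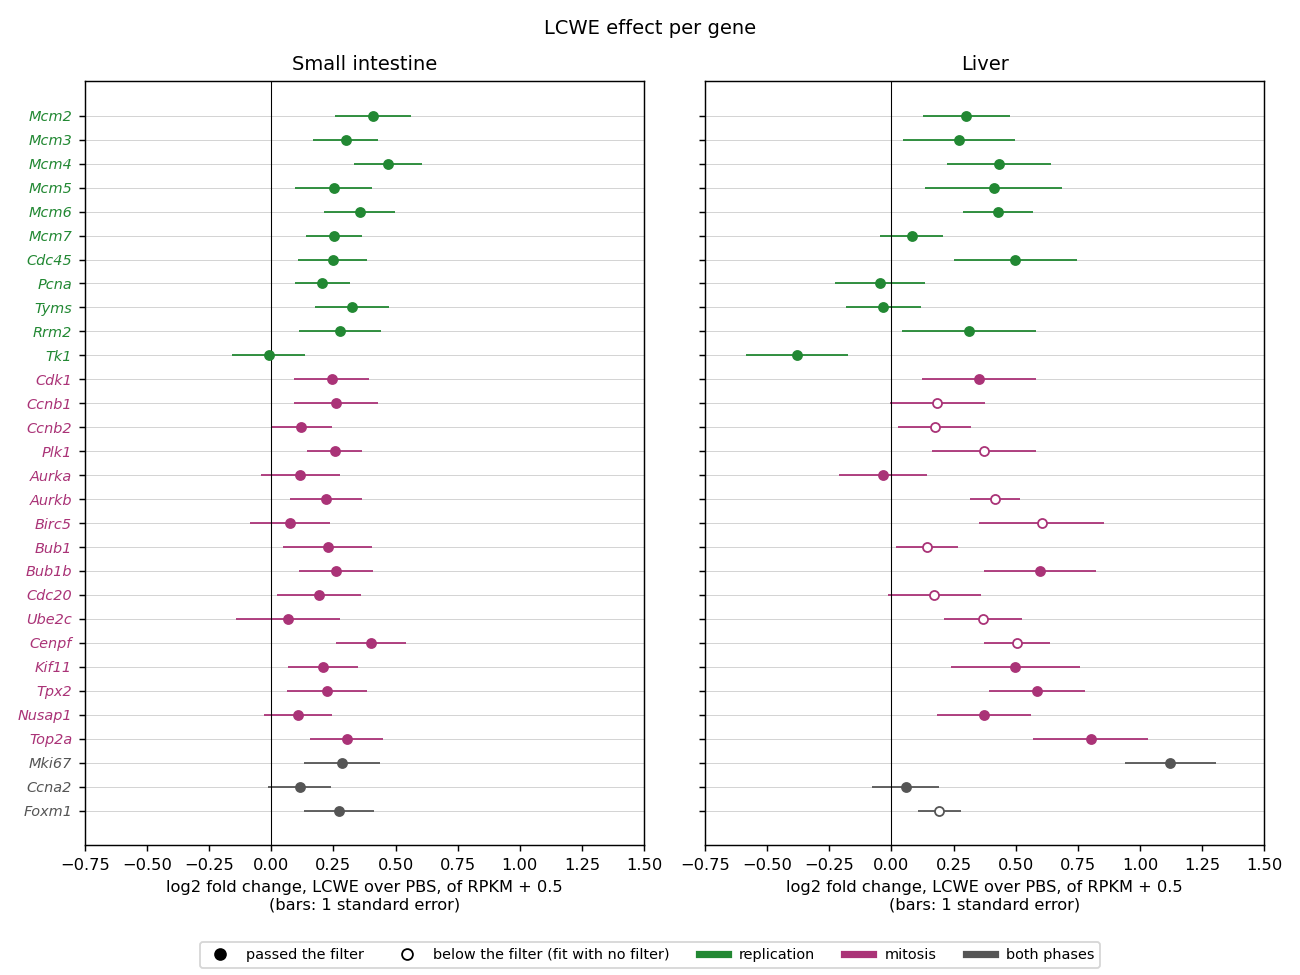
Log2 fold change of RPKM + 0.5, LCWE over PBS, for each gene with bars of 1 standard error, intestine on the left and liver on the right; open circles are genes below the expression filter, from a fit with no filter. In intestine 29 of 30 lie above 0, and in liver Mki67 at 1.12 lies farthest to the right, followed by Top2a at 0.80.

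The LCWE effects of the 2 tissues were compared directly in 1 fit, by subtracting the intestinal from the liver effect. No member passed (0 of 30, against 0.736% of 18619 genes). Mki67 had the smallest p of the 30, with a difference of 0.84 on the log2 scale (SE 0.244, unadjusted p = 0.00552, adjusted p = 0.15, range over alternatives 0.0766 to 0.305). Top2a followed among the 30 at 0.50 (SE 0.287, adjusted p = 0.519). Of genes outside the 30, Spc24 and Ccnd1, described further on, differed by -0.90 (SE 0.199, limma adjusted p = 0.0674, range over alternatives 0.0243 to 0.17) and 0.74 (SE 0.234, adjusted p = 0.186), and neither passed. Spc24 passed without intestinal LCWE replicate 1. The Mki67 rise in liver was therefore not shown to differ from the intestinal value of 0.28.

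Replication and mitosis genes kept a different balance in the 2 tissues. In each library the mean of log2(RPKM + 0.5) was taken over the 11 replication and over the 16 mitosis genes. The replication mean minus the mitosis mean was -0.416, -0.413 and -0.274 in intestine with PBS and -0.292, -0.292 and -0.295 with LCWE. In liver it was 1.53, 1.44 and 1.45 with PBS and 1.29, 1.20 and 1.40 with LCWE. All intestinal libraries thus had a higher mitosis mean, and all liver libraries a higher replication mean. Between PBS tissues the balance differed by 1.84 log2 units, which a pseudocount of 0.1 raised to 2.57 and voom to 3.01.

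With LCWE the mitosis mean in liver went from -0.284, -0.164 and -0.234 to -0.051, 0.056 and 0.461, with no overlap. The replication mean went from 1.24, 1.27 and 1.21 to 1.24, 1.26 and 1.86, where only replicate 4 left the PBS range. The balance shifted by -0.175 in liver, toward mitosis, and by 0.075 in intestine. In intestine both means overlapped between groups, at 3.24, 3.11 and 3.04 against 3.16, 3.58 and 3.49 for replication and 3.65, 3.52 and 3.31 against 3.45, 3.87 and 3.78 for mitosis. The size of the liver shift depended on the pseudocount, at -0.409 with 0.1 and -0.096 with 1, and most mitosis genes there were below 1 RPKM. On ratios of mean RPKM, which use no pseudocount, the liver medians were 1.38 for replication and 1.98 for mitosis genes, and 1.01 and 1.38 without LCWE replicate 4. Over all genes tested in liver the medians were 1.05 and 1.04. Those genes all passed the filter, as did the 11 replication genes, but only 7 of the 16 mitosis genes passed it. The mitosis median is thus not set against a like set of genes. No test is given over the members of a class.

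**Figure D5:**
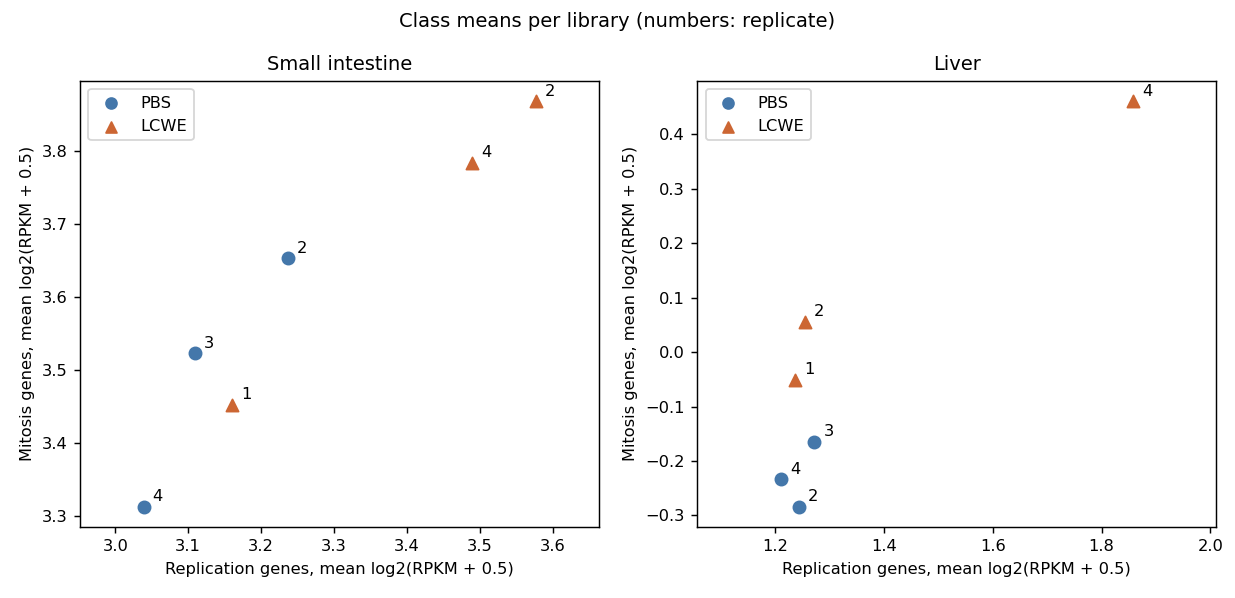
Mean log2(RPKM + 0.5) of the 16 mitosis genes against that of the 11 replication genes, 1 point per library with its replicate number; circles are PBS and triangles LCWE. In liver LCWE replicates 1 and 2 stand above the PBS libraries on the mitosis axis only, and replicate 4 at 1.86 and 0.461 stands apart on both.

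Further genes of the pathway were read from 5 lists. Of 48 further replication genes (origin licensing, polymerases, clamp loader and nucleotide supply), 0 passed in intestine and 0 of 36 tested in liver, with medians of 0.21 and 0.08 on the log2 scale against 0.11 and 0.06 for all genes tested. The smallest p was that of Pold2, a polymerase delta subunit, in intestine (6.60 ± 0.618 to 9.26 ± 1.57 RPKM, SD, n = 3, limma adjusted p = 0.326). In liver it was that of Pold1, the catalytic subunit (0.403 ± 0.0700 to 0.710 ± 0.0666, adjusted p = 0.129). Its PBS values of 0.323, 0.448 and 0.440 RPKM are all below the filter of 0.5. Pold1 was thus tested in liver only through its LCWE libraries, a selection that favours a rise. Between PBS tissues 44 of the 48 were called lower in liver, against 60.5% of all genes tested, with a median of -1.41 against -0.69.

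Of 55 further mitosis genes, 0 of 54 tested passed in intestine, where Cenpk, a centromere protein, had the smallest p (3.29 ± 0.401 to 4.29 ± 0.323 RPKM, adjusted p = 0.343). In liver 1 of 16 tested passed, and it fell, where 0.646% of genes were called lower. This was Spc24, a subunit of the Ndc80 kinetochore complex, which went from 14.5, 13.0 and 12.2 RPKM to 7.67, 7.86 and 7.30 (log2 fold change -0.76, SE 0.103, adjusted p = 0.0157). Between PBS tissues Spc24 did not pass (-0.11, adjusted p = 0.485), while 52 of the 54 tested were called lower in liver, against 60.5% of all genes (33.9% under quantile and 37.4% under median-ratio scaling). Its call was lost without LCWE replicate 1 (adjusted p = 0.0887), 2 (0.0906) or 4 (0.0593) or PBS replicate 3 (0.0703). The median log2 fold change of the 16 tested in liver was 0.31, against 0.06 for all genes tested. For the 54 tested in intestine it was 0.19, against 0.11. These medians cover different genes and are not compared. A gene near the liver filter can also pass it through its LCWE libraries, which favours a rise.

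Of 11 G1 cyclins and their kinases, 1 of 9 tested passed in liver, where 3.39% of all genes were called higher. It was Ccnd1 (cyclin D1), which couples growth signals to the cell cycle. It had 2.65, 2.92 and 2.54 RPKM with PBS and 5.80, 6.55 and 4.57 with LCWE (log2 fold change 0.93, SE 0.147, adjusted p = 0.0247). The groups do not overlap. The call was lost without LCWE replicate 1 (adjusted p = 0.122) or 2 (0.115) or PBS replicate 3 (0.0832) or 4 (0.0834), and with no filter (0.0508). Of its bases 1100 (23.4%) are shared with Oraov1 on the opposite strand. In intestine none of 11 passed, and Ccnd2 (cyclin D2) had the smallest p, at 10.7, 11.5 and 10.8 and 13.8, 19.8 and 20.9 RPKM (0.68, SE 0.161, adjusted p = 0.235, and 0.0331 without LCWE replicate 1).

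Of 18 CDK inhibitors and p53 targets none passed in either tissue. Cdkn1a (p21), which halts the cycle, had 1.99, 2.64 and 1.78 RPKM in liver with PBS and 2.68, 3.92 and 7.42 with LCWE (log2 fold change 0.88, SE 0.328, adjusted p = 0.214). In intestine Trp53inp1, a p53-induced gene, was at 2.91, 2.48 and 2.79 and 3.80, 4.11 and 5.72 (adjusted p = 0.245). Of 20 E2F, RB and DREAM genes none passed. Rbl1 (p107), a pocket protein that binds E2F, had 0.217, 0.428 and 0.255 in liver with PBS and 0.699, 0.758 and 0.720 with LCWE (0.62, SE 0.142, adjusted p = 0.0641). It passed in 1 fit over the 4 groups (0.0201) and with voom (0.0264). All its PBS values in liver are below the filter of 0.5 RPKM. The fits of liver alone, voom among them, thus tested Rbl1 only through its LCWE libraries. That selection favours a rise, so the voom call is not read as support. In intestine Tfdp1, the E2F dimer partner, was at 15.6, 14.3 and 13.5 and 16.3, 17.9 and 19.7 (adjusted p = 0.339).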

How the data were processed

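Libraries for Illumina sequencing were made from TRIzol-extracted, DNase-treated total RNA, per the labels' protocols. Tools listed in the submitters' processing notes, with no role stated, are edgeR 3.12.1, Subread 1.5.1, featureCounts and Trimmomatic 0.36, on the build mm10. No source used here says which aligner was run or whether strand was used. The authors deposited RPKM values for 34348 genes. Of 16 columns of libraries, 4 matched no sample by name and were not used. Likewise 12 columns of libraries in the differential table were not used. That deposited table gives the authors' p-values, false discovery rates and log2 fold changes, copied here only for the members. The product of RPKM and length recovered whole reads for 100% of nonzero values (tolerance 0.001), in all 30294594 to 44921885 per library. Each group has 3 libraries, and several mitosis genes in liver rest on few reads.

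Groups came from the labels. A gene was tested if 3 or more libraries of a fit reached 0.5 RPKM, on log2(RPKM + 0.5), which understates the change of low genes, by limma's moderated two-sided test with a mean trend (version 3.58.1, R version 4.3.3). P-values were adjusted by Benjamini-Hochberg over all genes tested and called below 0.05. Each tissue was fitted apart; the difference of effects and the tissue contrast came from 1 fit over 12 libraries. The fits were tested on simulated data. The changes put in were larger than those of the members in intestine, and in liver lay in genes above the level of most mitosis genes. Smaller changes, or changes in genes at lower levels, were not simulated. Alternatives were pseudocounts 0.1 and 1, no filter or a filter at 1, quantile and median-ratio scaling, voom on recovered reads, a replicate block, 1 fit over 4 groups and each library left out. Members and lists were chosen with earlier results of these data known, although the rule for the members uses no measured value. All members are described. Of each further list, up to 3 genes per tissue and direction that passed are named, or otherwise the 1 with the smallest p. Motifs were searched in RefSeq promoter entries (GRCm38.p6), and the printed windows were kept clear of exons of GENCODE M21. Exonic bases shared between genes were taken from the gene models deposited with the RPKM values. Sequences of proteins were not used here.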

Additional observations from a re-analysis of the deposited data

How the results depend on the processing

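The count of members called was 0 in intestine and 0 for the difference of effects under all alternatives run, and 29 lower between tissues in each, with Tk1 added as higher under both scalings. In liver it was 2 (Mki67 and Top2a) in 1 fit over 4 groups, 0 with no filter, 0 with the replicate block and 0 to 1 with a library left out. Calls over all genes in intestine were 213 in 1 fit over 4 groups and 0 to 70 with a library left out, with 70 when LCWE replicate 1 was out and 4 when LCWE replicate 2 was. In liver 582 became 898 in 1 fit over 4 groups, 335 with no filter and 24 with the replicate block. With a library left out they ranged from 55 (LCWE replicate 2) to 943 (PBS replicate 2), being 88 and 249 without LCWE replicates 1 and 4 and 113 and 235 without PBS replicates 3 and 4. For the difference, 137 became 28 with the replicate block and 20 to 461 with a library left out. The liver split of 489 higher and 93 lower was 342 and 123 under quantile scaling and 380 and 116 under median-ratio scaling. The tissue split of 3095 higher and 11266 lower was 6482 and 6306, and 6141 and 6971.

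The replicate block took the library's number as a term, of which only 2 and 4 are shared between PBS and LCWE. Deviations of same-numbered PBS and LCWE libraries correlated at 0.0921 and 0.115 in intestine and -0.102 and -0.0535 in liver. The numbers were therefore not taken as pairs of PBS and LCWE. Within each treatment the numbers also match between intestine and liver. Whether such libraries come from the same mouse is not in the labels, and this pairing was not checked. The tissue contrast and the difference of effects took all 12 libraries as independent. Under the block the liver calls of Mki67 (adjusted p = 0.184, limma), Spc24 (0.382) and Ccnd1 (0.312) were lost.

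Replication minus mitosis moved in liver (-0.175) to -0.409 and -0.096 with pseudocounts 0.1 and 1 and -0.618 with voom. For the difference (-0.250) it was -0.488 and -0.165, -0.329 with median-ratio scaling and -0.698 with voom. For the tissues (1.84) it was 2.57 and 1.45, 1.996 with median-ratio scaling and 3.01 with voom.

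Some directions reversed. In intestine, Birc5 was -0.030 and Ube2c -0.040 under median-ratio scaling, and Tk1 0.106 with the replicate block. With a library left out Tk1 ranged from -0.116 to 0.098, Birc5 from -0.029 to 0.229, Ube2c from -0.097 to 0.250 and Aurka from -0.0034 to 0.248. In liver, Ccna2 was -0.011 under median-ratio and -0.062 under quantile scaling, Mcm7 -0.023 under quantile scaling and Aurka 0.166 with the replicate block. With a library left out Pcna ranged from -0.208 to 0.079, Tyms from -0.139 to 0.058, Aurka from -0.193 to 0.085, Mcm7 from -0.021 to 0.138 and Ccna2 from -0.035 to 0.136. Rrm2, at 0.31 with all libraries, ranged from -0.010 (without LCWE replicate 4) to 0.482. The cause of these changes was not tested. Leaving out each library, added after seeing the data, gave 27 to 30 members with a higher LCWE mean in intestine and 22 to 29 in liver. Members with LCWE libraries wholly above PBS ones then numbered 5 to 27 in intestine and 9 to 16 in liver.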
